A study of Mus musculus with 6 samples.

Results

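The genes described here encode the conjugating enzymes of the kidney: the glutathione S-transferases, the UDP-glucuronosyltransferases and the cytosolic sulfotransferases. They were taken by name from the deposited count table, as the protein-coding genes whose symbol starts with Gsta, Gstk, Gstm, Gsto, Gstp, Gstt, Gstz, Mgst, Ugt1, Ugt2, Ugt3 or Sult. This gave 67 genes of the 54532 named genes in the table. The samples were mouse kidneys, with 3 libraries from wild-type (WT) animals and 3 from animals whose genotype is given as Lpar3-/-. Every animal had been held for 12 h at 8% oxygen and normal pressure, and the comparison made is that of the genotypes in low oxygen. The labels give neither the strain, age or sex of the mice nor the part of Lpar3 that was deleted. No kidney from normal air is part of the comparison.

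These enzymes join a polar group to drugs, toxins, steroids, bile pigments and the body's own reactive products, so that they can be excreted in urine or bile. Glutathione S-transferases attach the tripeptide glutathione to electrophiles such as the aldehydes that form when lipids oxidise. UDP-glucuronosyltransferases sit in the endoplasmic reticulum and transfer a sugar, mostly glucuronic acid. Sulfotransferases transfer sulfate from the donor PAPS to phenols, catecholamines and steroids. In the kidney many of these enzymes are made in the proximal tubule.

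Each library held between 16011804 and 17991881 counts, of which the transferase genes took 0.579% to 0.648%. Lpar3 did not set the groups apart: it had 645, 634 and 577 counts in WT replicates 1 to 3 and 672, 592 and 580 in the libraries labelled Lpar3-/-, so each direction below rests on the labels. The labels do not state that the libraries came from separate mice, and the spread behind the p-values is that of these samples and may be technical. All libraries held the kidney genes Lrp2 (proximal tubule, 94.3 to 107 FPKM), Umod (thick ascending limb, 796 to 960 FPKM) and Aqp2 (collecting duct, 297 to 398 FPKM). FPKM, fragments scaled by gene length and library size, is the level the authors give per gene. The hepatocyte gene Fgb had 0 counts, and Alb reached at most 1.65 FPKM. Of the other genes on the hepatocyte list, Apoa1, Serpina1a and Cps1 had at most 45 counts in a library. Cyp2e1 had 40981 to 49971 counts per library, Ttr 755 to 1729 and Apob 500 to 713.

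Of the 67 genes, 38 had enough counts to be tested, 15 had a few counts and 14 had 0 counts in each library. A few genes made up most of the transferase mRNA. Sult1d1, which sulfates dopamine and other catecholamines, and Ugt3a2, a glycosyltransferase that uses sugars other than glucuronic acid, had means of 529 and 523 FPKM over the 6 libraries. Together they made up 40.4% of the summed FPKM of all 67 genes. Ugt2b38 followed with 274 FPKM, Gstm1 with 242, Ugt2b37 with 105 and Ugt3a1 with 101. The spread between libraries did not set Sult1d1 apart from Ugt3a2: they had 412 to 603 and 484 to 587 FPKM. Among the tested genes 22 had a mean above 10 FPKM and 8 had a mean below 1 FPKM.

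**Figure D1:**
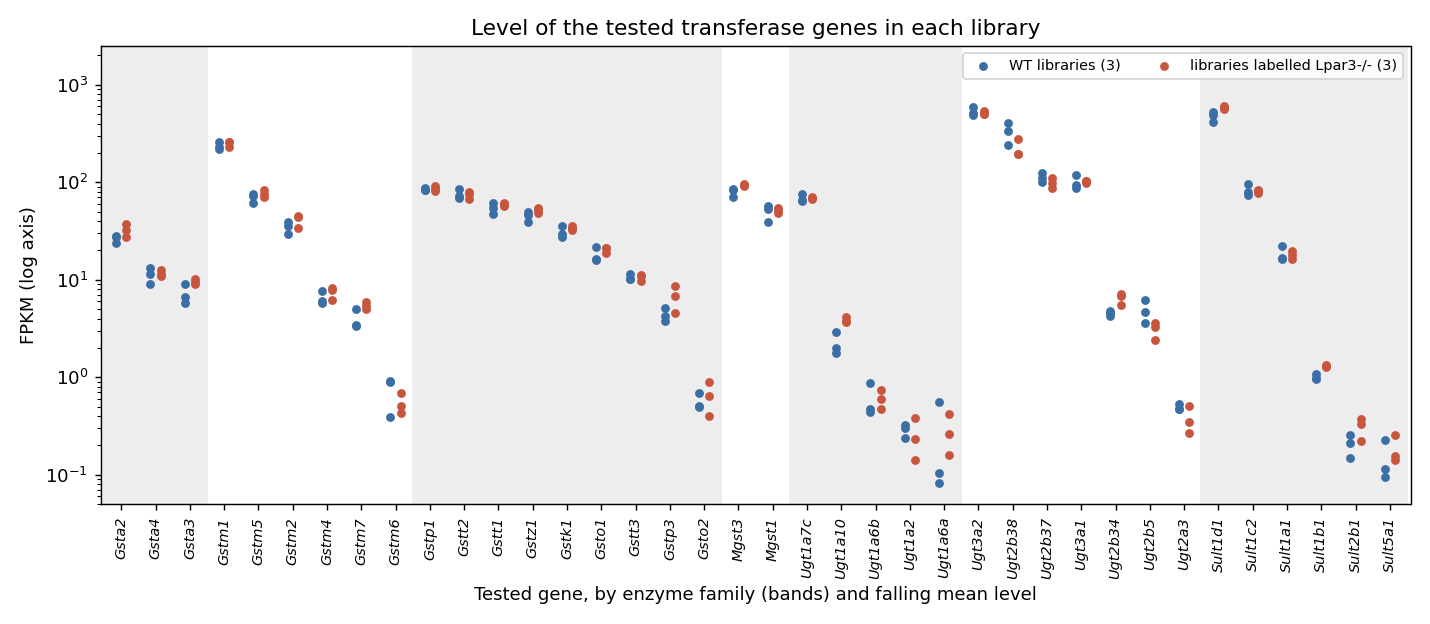
Level in FPKM (log axis) of the 38 tested transferase genes, with 1 point per library (blue, WT; red, labelled Lpar3-/-; 3 each) and shaded bands for the enzyme families. Sult1d1 and Ugt3a2 stand highest, with means of 529 and 523 FPKM, and for most genes the points of the groups overlap.

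The summed level of all 67 genes was similar in the groups. It was 2551, 2802 and 2379 FPKM in WT replicates 1 to 3 and 2532, 2748 and 2607 FPKM in the libraries labelled Lpar3-/-, and the groups overlapped. The sulfotransferases summed to 631, 603 and 504 FPKM in WT and to 668, 701 and 680 FPKM in the libraries labelled Lpar3-/-, without overlap, and most of this was Sult1d1. The Ugt2 and Ugt3 genes summed to 962, 1241 and 1026 FPKM against 901, 1040.4 and 905 FPKM, with overlap.

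In the test across all genes, none of the 38 tested transferase genes passed (edgeR quasi-likelihood test, adjusted p below 0.05), where 57 of 15225 genes, or 0.374%, did. By limma-voom, which called 0.361% of all genes, 0 passed too. DESeq2, which called 1.22% of all genes, called 2, Ugt2b34 and Ugt1a10, both higher in the libraries labelled Lpar3-/-. At an unadjusted edgeR p below 0.05 there were 11 (28.9%), against 9.18% of all genes tested. Of these, 9 (23.7%) had the higher mean in the libraries labelled Lpar3-/-, against 3.97% of all genes, and 2 (5.26%) had the lower, against 5.21%. The number depended on the libraries: without replicate 3 of the libraries labelled Lpar3-/- it was 6 of 38, against 6.30% of all genes in that fit. For 5 tested transferases (13.2%) the values of the groups did not overlap, a share near the 13.7% of all genes. All had the higher values in the libraries labelled Lpar3-/-, and they were Ugt2b34, Ugt1a10, Sult1d1, Mgst3 and Sult1b1.

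The median log2 fold change of the 38 tested genes, libraries labelled Lpar3-/- over WT, was 0.13, against -0.0036 for all genes tested. It was 0.061 without replicate 3 of the libraries labelled Lpar3-/-. A positive value was found for 28 genes and a negative one for 10. WT replicate 3 had the lowest CPM (counts scaled to the effective library size) of the 6 libraries for 19 of the 38 genes, and without it the median was 0.082. For 22 genes the 95% interval of the fold change lay within 1.5-fold in either direction. The 27 genes with an unadjusted p of at least 0.05 ran from -0.45 to 0.59. Among the 28 genes with a mean of at least 5 CPM in WT, the coefficient of variation between replicates had a median of 13.0% in WT and of 6.63% in the libraries labelled Lpar3-/-.

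**Figure D2:**
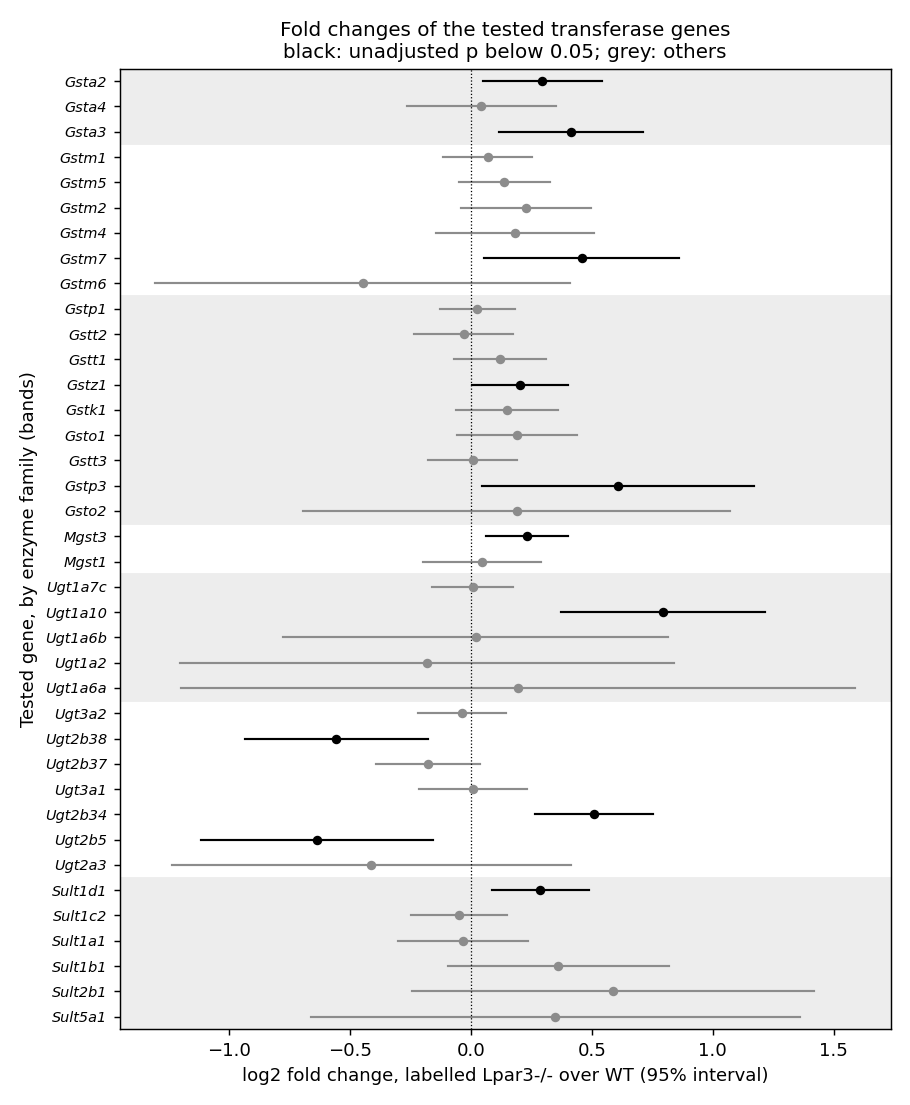
Log2 fold change (x axis, labelled Lpar3-/- over WT) of each tested transferase gene with its 95% interval, with shaded bands for the families and black for an unadjusted p below 0.05. Of the 38 genes 28 lie right of 0, and Ugt2b38 and Ugt2b5 are the 2 black points left of it.

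The alpha class of glutathione S-transferases acts on products of lipid peroxidation, and its 3 tested genes all had positive fold changes, with a median of 0.29. Gsta3 (chromosome 1, 21240589 to 21265661 in GRCm38) had 39.8, 25.3 and 29.1 CPM in WT and 41.9, 39.4 and 44.3 CPM in the libraries labelled Lpar3-/-. The groups overlapped through WT replicate 1, and the other WT libraries were the lowest. The log2 fold change was 0.41 (SE 0.14, edgeR adjusted p = 0.335). Leaving out 1 library at a time gave 0.28 to 0.62. Without WT replicate 1 it was 0.62 and Gsta3 passed (edgeR adjusted p = 0.0118), and without WT replicate 2 it was 0.28 and Gsta3 did not (edgeR adjusted p = 0.516).

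Gsta2 had 33.0, 28.4 and 32.7 CPM in WT and 32.5, 38.4 and 44.5 CPM in the libraries labelled Lpar3-/-. The groups overlapped through replicate 1 of the latter, and the log2 fold change was 0.29 (SE 0.11, edgeR adjusted p = 0.426). It was 0.18 without replicate 3 of the latter. Its coding sequence was 97.6% identical to that of Gsta1, and 49.8% of the 50-base windows of its transcripts also occurred in another gene. Gsta1, Gm10639 and Gm3776 shared the largest numbers of these windows, so that reads may be divided between them and Gsta2. Gsta1 had 0 to 6 counts per library, and the counts of Gm10639 and Gm3776 are not given here. Gsta4, which clears the lipid aldehyde 4-hydroxynonenal, differed little, with 14.4 ± 2.59 against 14.8 ± 1.07 CPM (mean ± SD, n = 3 each) and a log2 fold change of 0.043 (95% interval -0.27 to 0.35).

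The mu class is encoded by a gene cluster on chromosome 3, which lies 38.2 Mb from Lpar3 on the same chromosome. Gstm1, its most abundant member, had 341, 385 and 328 CPM in WT and 337, 381 and 387 CPM in the libraries labelled Lpar3-/-, with a log2 fold change of 0.069 (95% interval -0.12 to 0.25). Gstm2 and Gstm5, the next by FPKM, had log2 fold changes of 0.23 and 0.14 (edgeR adjusted p = 0.635 and 0.703). Gstm7 was the mu class gene with the lowest p. It had 8.18, 5.50 and 5.38 CPM in WT and 8.09, 8.69 and 9.48 CPM in the libraries labelled Lpar3-/-, with a log2 fold change of 0.46 (SE 0.18, edgeR adjusted p = 0.462). As with Gsta3, WT replicate 1 stood above the other WT libraries and within the range of the other group. Of the 7 mu class genes, Gstm3 was the only one not tested, with at most 3 counts in a library.

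Many glutathione S-transferase genes are textbook targets of NRF2, a factor that binds the antioxidant response element. The core of that element, TGACNNNGC, was searched on both strands in windows of 250 bases before to 50 bases after each start site (RefSeq, GRCm38.p6). Of the 38 tested genes 34 had such a window, and 4 of them (11.8%) held the core, against 14.0% of all 27025 genes in the table. The 4 were Gsta3, Gstm7, Gstm5 and Mgst1. Stretches of 60 bases are shown because they come from the alpha and mu class genes with the lowest p, with the match in capitals. The stretch of Gsta3 is chr1:21240438-21240497 on the plus strand and that of Gstm7 is chr3:107931710-107931769 on the minus strand. A match is a description of the sequence, and no binding was measured.
Gsta3: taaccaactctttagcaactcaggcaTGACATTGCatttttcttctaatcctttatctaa
Gstm7: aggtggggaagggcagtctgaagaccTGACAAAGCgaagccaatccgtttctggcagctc

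The other soluble classes held 11 genes, of which 9 were tested, and 8 of these had a positive fold change. Gstz1 catalyses a step of tyrosine breakdown, the isomerisation of maleylacetoacetate. It had 237, 253 and 201 CPM in WT and 248, 280.0 and 267 CPM in the libraries labelled Lpar3-/-, with overlap, giving a log2 fold change of 0.20 (SE 0.090) and an edgeR adjusted p of 0.529. Without WT replicate 3 the log2 fold change was 0.12. Exons of Gstz1 share bases with those of Pomt2 and Gm6566. The abundant Gstp1, Gstt2 and Gstt1 had log2 fold changes of 0.025, -0.030 and 0.12, with edgeR adjusted p of at least 0.765.

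The pi class genes lie side by side on chromosome 19. Gstp3 had 3.67, 2.72 and 3.02 CPM in WT and 6.21, 3.27 and 4.85 CPM in the libraries labelled Lpar3-/-. Replicate 2 of the latter lay within the WT range, and the log2 fold change was 0.61 (SE 0.26, edgeR adjusted p = 0.503). It was 0.38 without replicate 1 of the latter. Gstp2 had 1 count in each WT library and 13, 0 and 13 counts in the libraries labelled Lpar3-/-, too few for the test. Its coding sequence was 98.1% identical to that of Gstp1, whose level was 64.5 ± 2.23 against 65.6 ± 3.86 CPM.

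The membrane-bound transferases belong to a separate protein family that also acts on lipid hydroperoxides and leukotriene precursors. Mgst3 had 93.9, 92.4 and 78.6 CPM in WT and 101, 104 and 106 CPM in the libraries labelled Lpar3-/-. The groups did not overlap. The fold change was 0.23 on the log2 scale (SE 0.078, 95% interval 0.060 to 0.40, edgeR adjusted p = 0.349), or 1.17-fold. Mgst1 had 101 ± 17.96 against 104 ± 5.81 CPM, and Mgst2 had at most 3 counts in a library.

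The 9 Ugt1 genes share one locus on chromosome 1. Each has its own first exon, which encodes the part that binds the substrate, and all are spliced to the same last exons. Reads in the shared exons cannot be given to 1 gene, and how the authors treated them is not given in the sources used here. By GENCODE vM21 annotation (GRCm38), 35.7% of the exonic bases of Ugt1a10 belong to no other gene, and nearly all of these form 1 stretch of 804 bases in its first exon (chr1:88055533-88056336). For Ugt1a7c the share is 45.4%. It comes from 917 bases of its first exon and from 998 bases at the end of the shared last exon (chr1:88219005-88220002), where no other annotated gene reaches. Its counts may therefore hold reads from mRNAs of other Ugt1 genes.

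Ugt1a10 had 4.57, 6.69 and 4.05 CPM in WT and 9.40, 8.69 and 8.496 CPM in the libraries labelled Lpar3-/-. All 3 libraries of the latter lay above all of WT, and the mean was 1.74-fold higher (log2 fold change 0.80, SE 0.19, 95% interval 0.37 to 1.22). The edgeR adjusted p was 0.135, while DESeq2 gave 0.0313. It rested on 67 to 165 counts per library. Without WT replicate 2, the highest of WT, the log2 fold change was 1.04 and the gene passed (edgeR adjusted p = 0.0263). It did not pass with any other library left out, and the lowest value was 0.66, without WT replicate 3 (edgeR adjusted p = 0.280).

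Ugt1a7c carried most of the counts of the locus. Its level was similar in the groups, with 319, 277 and 276 CPM in WT and 300, 285 and 292 CPM in the libraries labelled Lpar3-/-, with a log2 fold change of 0.0068 (95% interval -0.16 to 0.17). The intervals of Ugt1a10 and Ugt1a7c do not overlap, though the difference between these genes was not tested. Ugt1a6b, the third of the family by FPKM, had 1.07 to 2.12 CPM and a log2 fold change of 0.019 (95% interval -0.78 to 0.82). Ugt1a1, the bilirubin-conjugating form of the liver, had 5, 4 and 2 counts in WT and 0, 1 and 1 counts in the libraries labelled Lpar3-/-.

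The Ugt2 genes, whose products conjugate steroids, bile acids and fatty acids, lie in a row on chromosome 5 with 3 Sult1 genes, from Ugt2b34 (start 86889767) to Sult1e1 (end 87591594). Along this row Ugt2b34 and the 2 tested sulfotransferases had positive fold changes, and the 4 tested Ugt2 genes between them had negative ones.

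**Figure D3:**
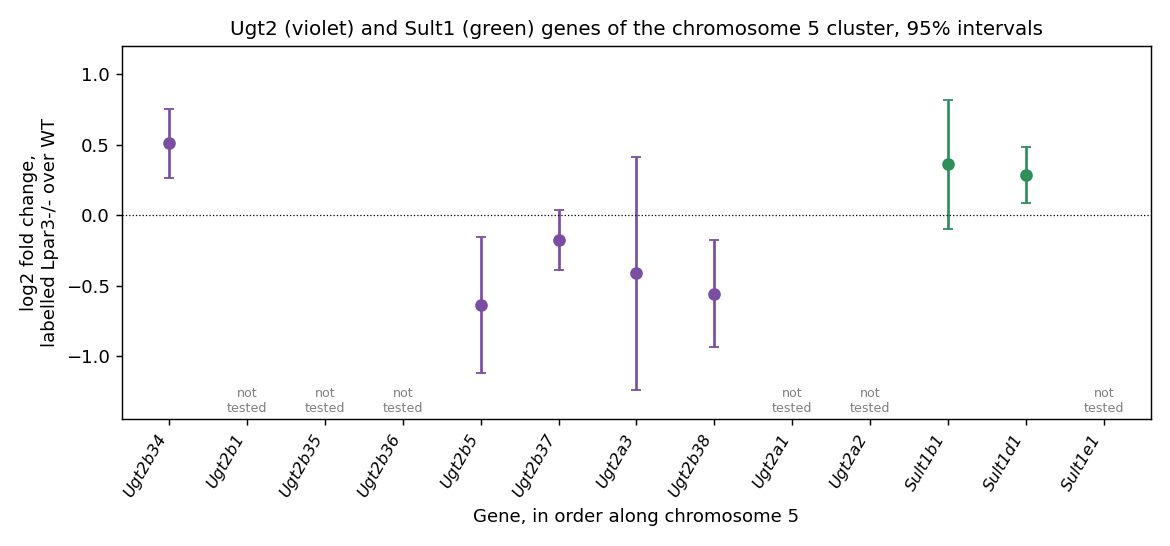
Log2 fold change (y axis, labelled Lpar3-/- over WT, 95% intervals) of the Ugt2 genes (violet) and Sult1 genes (green) in their order along chromosome 5. Ugt2b34 at one end and Sult1b1 and Sult1d1 at the other lie above 0, from 0.29 to 0.51, and the 4 tested Ugt2 genes between them lie below, from -0.64 to -0.18. The intervals of Sult1b1, Ugt2b37 and Ugt2a3 include 0.

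Ugt2b34 had the lowest p of the transferases. It had 20.1, 20.6 and 18.7 CPM in WT and 31.2, 23.7 and 29.5 CPM in the libraries labelled Lpar3-/-. The groups did not overlap, and the mean was 1.42-fold higher in the libraries labelled Lpar3-/- (log2 fold change 0.51, SE 0.11, 95% interval 0.26 to 0.75). The edgeR adjusted p was 0.0900 and that of DESeq2 0.0174. Its coding sequence was at most 72.0% identical to those of the other tested Ugt2 genes, and 1.44% of its 50-base windows occurred in another gene.

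Ugt2b38, Ugt2b37 and Ugt2b5 are close copies of each other. Ugt2b38 had 456, 762 and 644 CPM in WT and 368, 525 and 373 CPM in the libraries labelled Lpar3-/-. WT replicate 1 lay below replicate 2 of the latter, so that the groups overlapped (log2 fold change -0.56, SE 0.17, 95% interval -0.94 to -0.18, edgeR adjusted p = 0.291). Without WT replicate 1 it was -0.74 and passed (edgeR adjusted p = 0.0338). It did not pass with any other library left out, and without WT replicate 2 it was -0.38 (edgeR adjusted p = 0.484). Ugt2b5 had 6.72, 8.76 and 11.6 CPM in WT and 6.09, 6.80 and 4.51 CPM in the libraries labelled Lpar3-/-, with a log2 fold change of -0.64 (SE 0.22, edgeR adjusted p = 0.364). Without WT replicate 3 the value for Ugt2b5 was -0.41. Ugt2b37 had 211, 235 and 194 CPM against 166, 211 and 188 CPM, giving a log2 fold change of -0.18 (SE 0.098) and an edgeR adjusted p of 0.645.

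The coding sequences of these 3 genes, 1590 bases each, are shown in part because they bear on how far the counts can be told apart (GENCODE vM21 transcripts, GRCm38). Ugt2b38 and Ugt2b5 differed at 47 positions and Ugt2b38 and Ugt2b37 at 94. Of the 50-base windows, 37.4% for Ugt2b38, 41.7% for Ugt2b5 and 18.3% for Ugt2b37 also occurred in another gene. The first 120 coding bases were the same in Ugt2b38 and Ugt2b5 and differed at 1 position, in capitals, from Ugt2b37.
Ugt2b38: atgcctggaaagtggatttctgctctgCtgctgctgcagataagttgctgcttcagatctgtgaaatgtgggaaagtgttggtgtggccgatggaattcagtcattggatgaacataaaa
Ugt2b37: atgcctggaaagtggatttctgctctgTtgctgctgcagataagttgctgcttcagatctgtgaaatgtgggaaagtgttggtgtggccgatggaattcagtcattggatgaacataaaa
Ugt2b5: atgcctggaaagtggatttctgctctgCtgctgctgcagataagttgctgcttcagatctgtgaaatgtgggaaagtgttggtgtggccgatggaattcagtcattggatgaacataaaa

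Coding bases 1392 to 1511 are the stretch of 120 in which Ugt2b38 and Ugt2b5 differ most, at 13 positions. Capitals mark the 17 positions at which any of the 3 differ.
Ugt2b38: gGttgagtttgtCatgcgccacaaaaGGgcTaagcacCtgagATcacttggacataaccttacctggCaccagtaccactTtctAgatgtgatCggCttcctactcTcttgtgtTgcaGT
Ugt2b37: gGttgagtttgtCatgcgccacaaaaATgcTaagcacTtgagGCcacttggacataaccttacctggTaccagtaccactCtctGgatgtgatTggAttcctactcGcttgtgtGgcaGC
Ugt2b5: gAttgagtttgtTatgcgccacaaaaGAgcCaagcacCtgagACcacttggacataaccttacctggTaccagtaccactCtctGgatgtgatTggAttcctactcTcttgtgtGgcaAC

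The sum of the 3 copies is unchanged by how reads were divided among them. Reads left out as multi-mapped, or given to a further gene, would still be missing from it. The sum was 674, 1006 and 849.7 CPM in WT and 539.9, 743 and 566 CPM in the libraries labelled Lpar3-/-. Here too the groups overlapped through WT replicate 1. The Ugt3 pair on chromosome 15 differed by less than the spread between replicates: Ugt3a2 had 1657 ± 159 against 1614.5 ± 66.2 CPM (log2 fold change -0.038, 95% interval -0.22 to 0.15) and Ugt3a1 270.02 ± 45.0 against 271 ± 6.94 CPM. Of the 12 Ugt2 and Ugt3 genes, 5 were not tested, and Ugt2a1, Ugt2a2 and Ugt2b1 had 0 counts in each library.

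Sult1d1 was the most abundant sulfotransferase. It had 1309.8, 1207 and 1025 CPM in WT and 1402, 1493 and 1426 CPM in the libraries labelled Lpar3-/-. The groups did not overlap, and the mean was 1.22-fold higher in the latter (log2 fold change 0.29, SE 0.091, 95% interval 0.088 to 0.49, edgeR adjusted p = 0.304). None of its 50-base windows occurred in another gene. Its neighbour Sult1b1, which acts on thyroid hormones, had 3.05, 2.78 and 2.72 CPM in WT and 3.70, 3.59 and 3.70 CPM in the libraries labelled Lpar3-/-, also without overlap, giving a log2 fold change of 0.36 (SE 0.21) and an edgeR adjusted p of 0.670.

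Sult1c2 had 156 ± 20.8 against 150.3 ± 6.15 CPM and Sult1a1, the main phenol sulfotransferase, 28.1 ± 4.92 against 27.5 ± 2.68 CPM. Sult1e1, the oestrogen sulfotransferase, had 4, 8 and 0 counts in WT and 0 in each library labelled Lpar3-/-, too few for the test. Of the 21 sulfotransferase genes, 10 had 0 counts in each library. They comprise Sult1c1, Sult3a1, Sult3a2 and all Sult2a genes but Sult2a3, which had 2 counts in 1 library. The Sult2a enzymes sulfate bile acids and steroids in the liver.

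**Figure D4:**
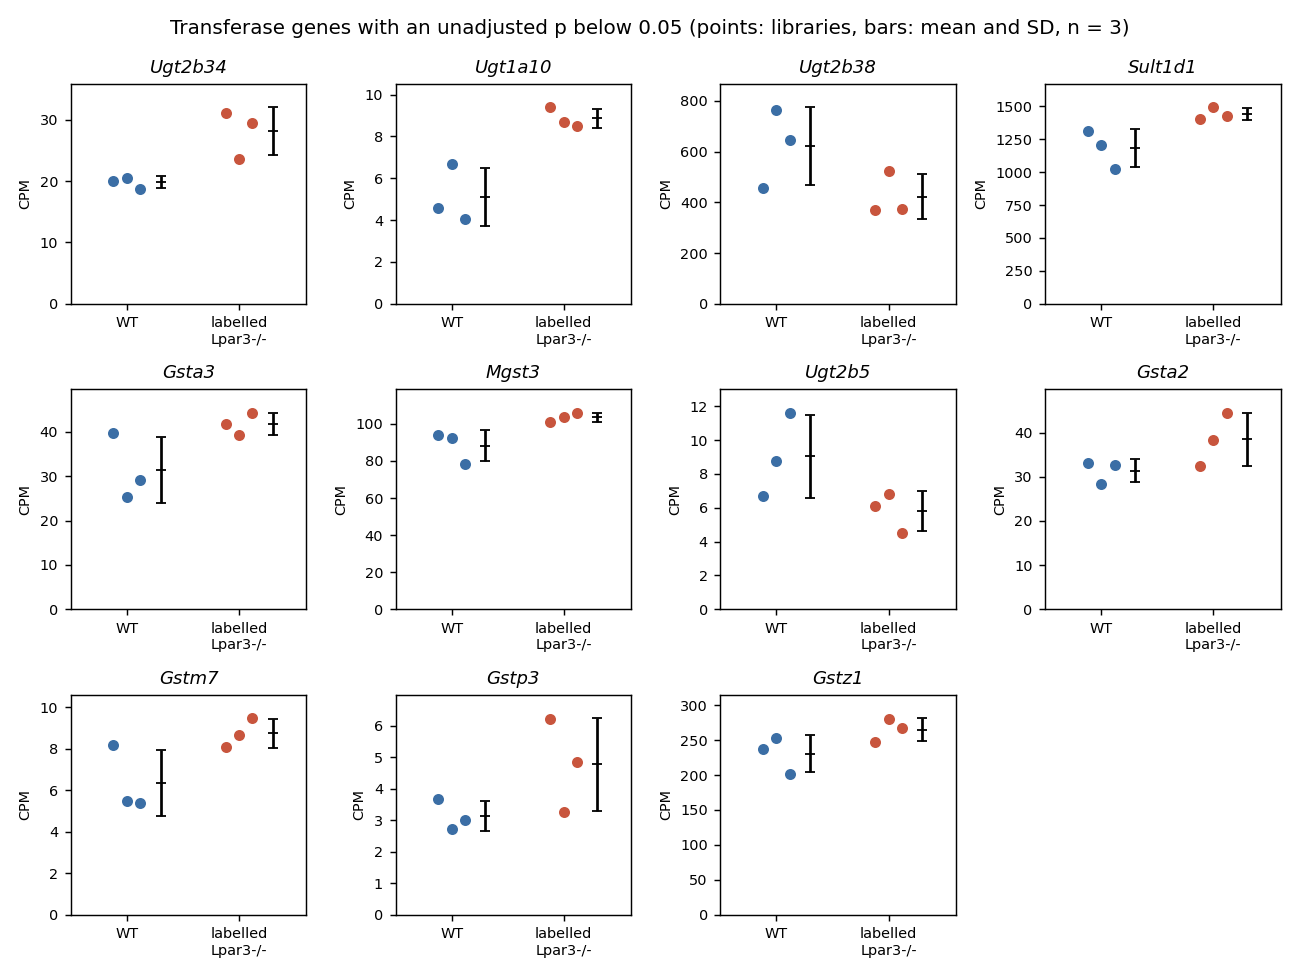
Level in CPM (y axes from 0) of the 11 transferase genes with an unadjusted p below 0.05, with 1 point per library and bars for the mean and SD of each group (n = 3). In Ugt2b34, Ugt1a10, Sult1d1 and Mgst3 the red points all lie above the blue, and in Ugt2b38 and Ugt2b5 the means are lower in the libraries labelled Lpar3-/-, with overlap.

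HNF1 factors are known to bind the start regions of many liver and kidney genes, Ugt genes included. The full HNF1 consensus, searched on both strands, was in none of the 34 windows of tested transferases and in 3 of the 27025 genes in the table. Its first 10 letters, a form shortened for this motif only, were in 2 of the 34 (5.88%), against 0.470% of all genes. That share rests on 2 genes, no binding was measured, and a tie to the group values was not tested. The 2 were Sult1d1 and Ugt1a10, with the match 79 and 75 bases before the start. They are shown because the groups did not overlap in either gene, with the match in capitals. The stretch of Sult1d1 is chr5:87569051-87569110 on the minus strand. In Ugt1a10, chr1:88055311-88055370 on the plus strand, the match is to the opposite strand. The STAT5 motif TTCNNNGAA was in 3 of the 34 (8.82%), against 9.55% of all genes, and the hypoxia response core ACGTG in 6 (17.6%), against 21.8%.
Sult1d1: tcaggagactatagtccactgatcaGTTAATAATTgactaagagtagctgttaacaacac
Ugt1a10: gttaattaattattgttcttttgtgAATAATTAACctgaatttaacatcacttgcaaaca

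Genes that supply glutathione or process its conjugates into mercapturates had a median log2 fold change of -0.00012. Of 25 tested, 0 passed over all genes by edgeR, 3 had an unadjusted p below 0.05 with a higher mean and 2 with a lower. Over all genes tested, 3.97% had such a p with a higher mean and 5.21% with a lower. Nat8, which acetylates cysteine conjugates to mercapturates in the proximal tubule, had 284, 279 and 263 CPM in WT and 342, 313 and 306 CPM in the libraries labelled Lpar3-/-, giving a log2 fold change of 0.22 (SE 0.073) and an edgeR adjusted p of 0.345. Acy1, an aminoacylase, had a log2 fold change of 0.24 and Nat8f2 one of 0.31, while Gss, glutathione synthetase, had one of -0.15. The edgeR adjusted p of these 3 was at least 0.287.

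Of the 16 tested genes for the donors of glucuronic acid and sulfate and for the reverse reactions, edgeR called 0 over all genes. An unadjusted p below 0.05 was found for 3 of the 16, all with a lower mean in the libraries labelled Lpar3-/-. Over all genes tested, 793 of 15225 (5.21%) had such a p with a lower mean. Gusb, the lysosomal glucuronidase that removes glucuronic acid, had 90.3, 145 and 176 CPM in WT and 72.8, 79.5 and 47.2 CPM in the libraries labelled Lpar3-/-. The groups did not overlap (log2 fold change -1.04, SE 0.22, edgeR adjusted p = 0.0767). Slc13a1, the sulfate transporter of the proximal tubule, had 397, 469 and 338 CPM against 311, 284 and 299 CPM, giving a log2 fold change of -0.43 (SE 0.10) and an edgeR adjusted p of 0.137. Papss1, which makes the sulfate donor PAPS, had a log2 fold change of -0.18, and Slc26a2 one of -0.23 (edgeR adjusted p = 0.389 and 0.608).

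All 11 tested exporters of conjugates and drugs had positive fold changes, with a median of 0.097, and edgeR called 0 over all genes. Of the 11, only Abcb1b, a P-glycoprotein gene, had an unadjusted p below 0.05, against 9.18% of all genes tested. It had 34.0, 21.4 and 18.4 CPM in WT and 39.9, 38.7 and 45.4 CPM in the libraries labelled Lpar3-/-, without overlap, giving a log2 fold change of 0.74 (SE 0.18) and an edgeR adjusted p of 0.122. Abcb1a, Abcc4 and Abcc1 had log2 fold changes of 0.29, 0.12 and 0.15 (edgeR adjusted p = 0.573, 0.695 and 0.781).

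Among 19 tested regulators, edgeR called 1, Prlr, the prolactin receptor, against 0.374% of all genes tested. Prlr had 16.4, 21.4 and 17.6 CPM in WT and 59.5, 61.7 and 77.7 CPM in the libraries labelled Lpar3-/- (log2 fold change 1.85, edgeR adjusted p = 2.76e-05). The list was chosen with earlier results of these data known, so this call is a description and no independent evidence about the regulators. Maff and Ppara had log2 fold changes of -0.62 and -0.28 (edgeR adjusted p = 0.1004 and 0.206). The list of NRF2 targets outside the transferases had 23 tested genes and a median of -0.053. EdgeR called 1 of them, Hmox1, heme oxygenase, which was lower (62.5, 77.2 and 75.4 against 54.0, 51.3 and 46.0 CPM, adjusted p = 0.0462). Hmox1 passed in 5 of 16 alternative analyses, and in 1 of the 6 that left out a library, with a log2 fold change of -0.60 to -0.44 throughout. Prlr passed in 15 of the 16. Cbr1, Gclc and Me1 had log2 fold changes of 0.26, -0.18 and -0.18 (edgeR adjusted p of at least 0.201).

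Markers of other cell types were measured in the same libraries. EdgeR called 0 genes of the macrophage, adipocyte, fibroblast, thick ascending limb and proximal tubule lists. In bulk tissue, fewer cells of a type and less RNA per cell cannot be told apart. Each of the 10 genes of macrophages and dendritic cells had a lower mean in the libraries labelled Lpar3-/- (median log2 fold change -0.56). They summed to 158.45 to 337 FPKM in WT and 132 to 158.37 FPKM in the libraries labelled Lpar3-/-, with WT replicate 2 the highest. The 8 adipocyte genes had negative fold changes, with a list median of -1.1 on the log2 scale. Cfd, Cidec, Plin1 and Adipoq had -1.92, -1.78, -1.51 and -1.49, without overlap of the groups. The rest of the list ran from -0.70 to -0.014, and among these the groups of Lpl (-0.26) did not overlap either. Over all genes tested, the groups did not overlap in 13.7%, counting either direction. The list summed to 200.3 to 289 FPKM in WT and 150.5 to 199 FPKM in the libraries labelled Lpar3-/-. Of 8 fibroblast and pericyte genes 7 were below 0 on the log2 scale (list median -0.38), and the list had sums of 38.6 to 60.7 against 36.8 to 41.2 FPKM. The 7 thick ascending limb genes summed to 1167 to 1307 against 1388 to 1461.5 FPKM. Markers of proximal tubule segments 1 and 2 summed to 1600.1 to 1862 against 1740.0 to 1889 FPKM, and those of segment 3 to 3010.1 to 3622 against 3088 to 3306 FPKM. Of 8 genes known to be higher in male mouse kidney edgeR called Slco1a1 and Cyp7b1, both lower, 4 more had negative fold changes, and Cyp2e1 and Timd2 had positive ones (0.17 and 0.046). Of 5 higher in female kidney edgeR called Prlr, which is also on the list of regulators, and Slc7a12, both higher. Slc22a7 and Cyp4a14 had fold changes of -1.09 and -0.12 on the log2 scale. Over all genes tested, edgeR called 57 of 15225 (0.374%). The part of these lists in the transferase values was not tested.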

How the data were processed

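Kidney mRNA in 6 libraries was measured by RNA sequencing. The submitters' processing notes name build GRCm38 and the tools DESeq2 1.20.0, featureCounts 1.5.0-p3 and HISAT2 2.0.5. The authors deposited whole-number read counts per gene and FPKM values. Dividing each count by gene length and effective library size gave the FPKM back (largest relative deviation 4.11e-08 over values from at least 20 counts). For strand setting, annotation release and multi-mapped reads the entry is: not given in the sources used here.

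Of 54909 rows, 377 had no gene name (0.259% to 0.362% of counts) and were left out. The counts were tested with edgeR 4.0.16 (R 4.3.3): quasi-likelihood F-test, 3 against 3 libraries, no covariate, default expression filter, TMM, Benjamini-Hochberg adjustment over 15225 genes, threshold 0.05. Log2 fold changes are labelled Lpar3-/- over WT. SE derive from the fold change and F, and intervals are 95% intervals. The common dispersion gave a coefficient of variation of 10.5%. Alternatives were DESeq2 1.42.0, limma-voom (limma 3.58.1), RLE and upper quartile factors, no filter, a stricter filter (10 counts in 3 libraries and a mean of 1 CPM), the replicate block, each library left out, and limma on log2 FPKM with a pseudocount of 1 or 0.1 and with a minimum mean of 0.1 FPKM or none. The test was checked on simulated data. The outcome is not given here, so the check does not show how well changes of the size seen in the transferases are found.

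Genes named are those with an adjusted or unadjusted p below 0.05, those whose groups did not overlap, up to 3 of highest mean FPKM per family, Lpar3, and called genes and up to 4 of lowest p per related list. Genes with 0 or few counts are accounted for by counts. A gene that this rule names is not reported here. The members and lists were chosen with earlier results of these data known. Coordinates are those of the deposited table. Exon sharing, coding sequences and 50-base windows come from GENCODE vM21, and 59 of the 67 genes had a RefSeq start window.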

Additional observations from a re-analysis of the deposited data

How the results depend on the processing

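The count of transferases called was 0 of 38 by the reported test, against 57 of 15225 over all genes. By DESeq2 it was 2 of 38, against 1.22% of all genes. Without a filter on low counts it was 6 of 53, against 520 of 26645 over all genes. The replicate block gave 1 of 38, against 80 of 15225. With a library left out it was 0 to 2, of 38 or 39 tested, where 12 to 149 genes were called over all genes. The count at an unadjusted p below 0.05, reported as 11 of 38, ran from 6 of 38 to 15 of 39 with a library left out. The shares of all genes in those fits were 6.3% to 11.6%. The transferase count was made up of 5 to 13 with a higher and 1 to 3 with a lower mean. Without a filter the lower ones were 4. The 5 transferases whose groups did not overlap became 6 to 15 with a library left out, where fewer libraries are compared. The share over all genes in those fits was not computed, so these counts have no baseline. The median log2 fold change of the tested transferases, reported as 0.13, was 0.043 without a filter and 0.061 to 0.16 with a library left out. On log2(FPKM + 1) it was 0.064 with a filter and 0.028 without. Over all genes the 57 calls became 179 with DESeq2, 520 without a filter, 9, 13 and 4 on log2(FPKM + 1), log2(FPKM + 0.1) and log2(FPKM + 1) without a filter, and 12 to 149 with a library left out. The 2 calls among related pathway genes became 5 with DESeq2, 8 without a filter, 1 by limma-voom, the stricter filter, the replicate block, log2(FPKM + 1) and log2(FPKM + 0.1), 0 on log2(FPKM + 1) without a filter, and 1 to 4 with a library left out. The cause of these shifts was not tested.

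Of 416 values, 26 named transferases under 16 alternatives, 404 kept their side of the threshold. The other 12 passed, namely 6 without a filter, 2 by DESeq2, 3 with a library left out and Ugt2b38 with the replicate block (adjusted p = 0.0363). The sign of the fold change differed from the reported one in 16 of the 416 values, in 9 of the 26 genes. No sign changed among the 11 with an unadjusted p below 0.05. The labels do not say whether the replicate numbers pair the samples. Same-numbered libraries had correlations of deviations of 0.00256, 0.00508 and 0.0511, and not each library correlated best with its own number. With 3 libraries per group these values cannot decide whether the samples were paired. The block gave 80 calls over all genes. Counting error weighs on the genes with few counts: Ugt1a6b had at most 35 and Sult1b1 at most 65 counts in a library.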

Other observations

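The name prefixes also take in 8 rows annotated as pseudogenes, which were not counted as members. Only Gstp-ps and Gstm2-ps1 had more than 4 counts in a library. The processed pseudogene Gstp-ps had 174, 155 and 146 counts in WT and 162, 159 and 202 in the libraries labelled Lpar3-/-, against 1048 to 1133 and 1084 to 1136 counts for Gstp1, and 33.7% of the 50-base windows of Gstp1 occurred in Gstp2, Gstp-ps or both. Gstm2-ps1 had 127, 165 and 107 counts in WT and 99, 134 and 128 in the libraries labelled Lpar3-/-. Of the 50-base windows of Gstm1, 18.9% occurred in another gene, and no gene shared more of them than Gstm2-ps1.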
